A study of Homo sapiens with 4 samples.

Results

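The immediate early factors of the AP-1, EGR1 and MYC group were followed in Huh7 cells, an established human liver cancer line, after knockdown of NUP210, the gene of a membrane-spanning nuclear pore glycoprotein. They comprise the FOS family (FOS, FOSB, FOSL1 and FOSL2), the JUN family (JUN, JUNB and JUND), ATF3, EGR1 and MYC. All 10 were found by exact gene symbol among the 20226 genes of the deposited tables. The knockdown cells, titled shNUP210 (2 libraries), carry a short hairpin that targets NUP210. The control cells, titled shCon, have the genotype wild type in their labels (2 libraries). Both kinds of cell are otherwise labelled untreated, and no stimulus such as serum is named. The sources used here do not say whether the hairpin cells were a clone or a pool, nor that replicates were grown as separate cultures. P-values here therefore capture library-to-library spread alone, part or all of which may be technical.

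Immediate early genes are transcribed within minutes of a growth factor, cytokine or stress signal, without new protein synthesis, mainly through ERK, JNK and p38 kinases acting on factors already bound at their promoters. FOS and JUN proteins are basic leucine zipper factors that pair as AP-1. JUN proteins can also pair with each other, whereas FOS proteins need a partner. EGR1 is a zinc finger factor, ATF3 a basic leucine zipper factor of the stress response, and MYC a helix-loop-helix factor that pairs with MAX. In rodent liver, FOS, JUN and MYC are known for their induction after partial removal of the organ.

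None of the 6 genes that could be tested passed the test between shNUP210 and shCon cells, and the other 4 were too low to test. EGR1 and MYC had lower values in both shNUP210 libraries than in either shCon library, at 0.329 and 0.659 of the control mean. JUND, the most abundant member, was at 0.809 of the control mean, while JUN and JUNB were at 1.16 and 1.22 times it. FOS and FOSB were near the detection limit and lay on opposite sides, FOS lower and FOSB higher in the shNUP210 libraries. FOSL1, FOSL2 and ATF3 had overlapping groups. Of 6 members with at least 5 TPM in 2 libraries (TPM is transcript abundance normalised for length and library total), limma on log2(TPM + 1) called 0 at a Benjamini-Hochberg adjusted p under 0.05, where 2.86% of all 10140 tested genes were called (1.79% higher and 1.07% lower). Without adjustment 3 had a p under 0.05 (EGR1, MYC and JUND, each lower), where 5.95% of tested genes were lower, 18.4% higher and 24.3% either. EGR1 passed the filter through the shCon libraries alone, which required it to be lower in shNUP210. FOS, FOSB, FOSL1 and FOSL2 were below the filter and are given as values.

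The knockdown itself was seen in the tables. NUP210 had 10.1 and 9.85 TPM in shNUP210, against 32.8 and 27.3 TPM in shCon (limma adjusted p = 0.0432). That call was lost when any 1 library was left out (adjusted p from 0.162 to 0.167). Genes reaching 1 TPM numbered 14564 and 14405 in shNUP210 and 13920 and 13675 in shCon. The tested genes had a median log2 fold change of 0.23, so a gene at that value differed as the typical gene did. TPM keep no depth. In single-transcript genes the most frequent low value was about 0.535 to 0.665 TPM on a 1 kb transcript. Taking this as the worth of 1 fragment, which was not tested, gives roughly 1630000 to 1970000 fragments per library. The fragment numbers below rest on the same assumption. The hepatocyte markers were all present (11 of 11 listed and tested). Of these, 4 were called lower (APOA1, APOA2, SERPINA1 and TF, which overlaps SRPRB) and 0 higher, against 1.07 and 1.79% of all tested genes. Their median log2 fold change was 0.01. Without overlap of the groups 4 were lower and 4 higher (AFP, TTR, HNF4A and FOXA2), where 14.3% of tested genes were lower and 42.9% higher. Their summed levels were 31140 to 31720 TPM in shNUP210 and 45080 to 46690 TPM in shCon. Most of that sum was APOA2, with means of 17130 and 27180 TPM. Of 9 fibroblast and stellate markers 7 were listed, 5 of them under 5 TPM in every library, with sums of 21.6 to 42.3 TPM in shNUP210 and 14.9 to 17.2 TPM in shCon. COL1A1, a collagen chain and the largest part of the difference in that sum, was at 18.9 and 7.55 TPM in shNUP210 and 1.25 and 3.80 TPM in shCon (log2 fold change 1.99, limma adjusted p = 0.136), passing the filter through shNUP210 alone, and THY1 was at 0 in 3 of the 4 libraries. Of 8 blood and endothelial markers CD68, a lysosomal protein, was the single listed gene, at 13.9 and 2.48 TPM in shNUP210 and 30.7 and 17.9 TPM in shCon. CD68 exons overlap SNORA67 over 1789 bases. The part of these markers in the results below was not tested. In bulk RNA, fewer cells with a transcript and less of it per cell cannot be told apart.

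**Figure D1:**
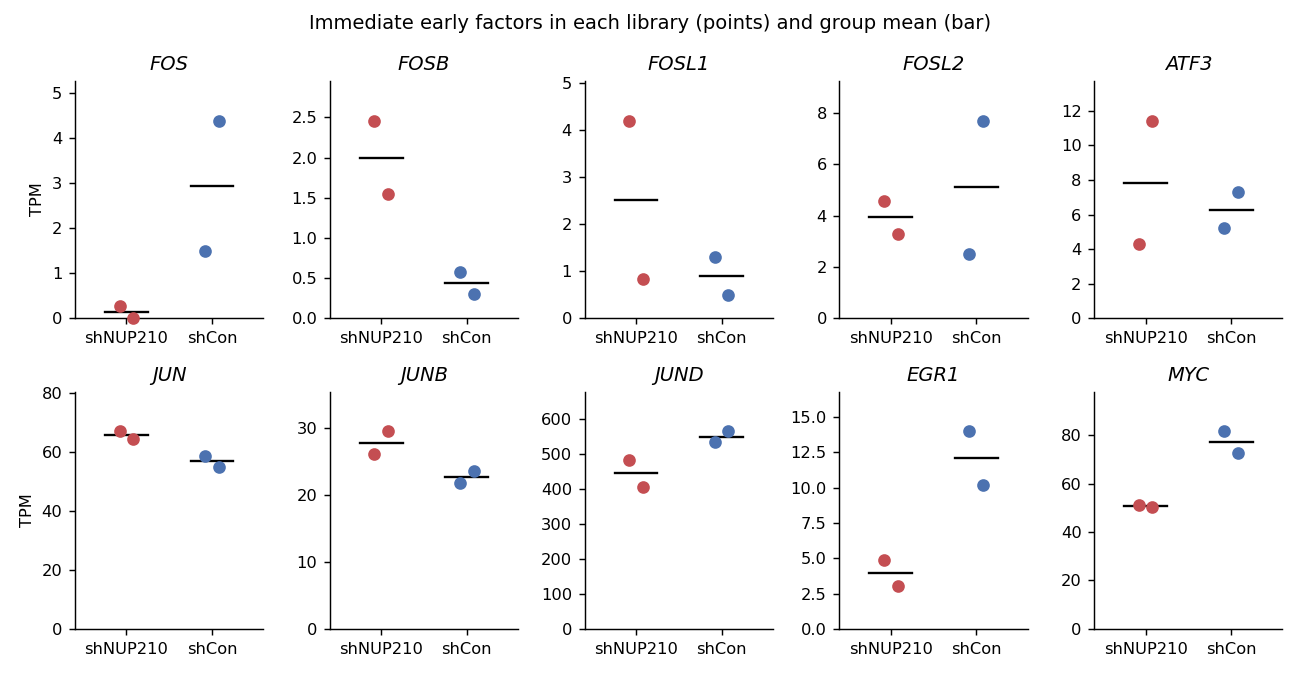
TPM of each of the 10 immediate early factors in the 2 shNUP210 (red, left) and 2 shCon (blue, right) libraries, with the group mean as a bar. Each panel has its own linear axis starting at 0. The groups do not overlap for FOS, EGR1, JUND and MYC, which are lower in shNUP210, or for FOSB, JUN and JUNB, which are higher.

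TPM are per transcript length, so levels can be set side by side between genes. In shNUP210 cells the order of the mean TPM was JUND, JUN, MYC, JUNB, ATF3, EGR1, FOSL2, FOSL1, FOSB and FOS. In shCon cells it was JUND, MYC, JUN, JUNB, EGR1, ATF3, FOSL2, FOS, FOSL1 and FOSB. In shNUP210 the neighbours from ATF3 down to FOSB overlapped, and the other neighbours did not. In shCon the neighbours ATF3 and FOSL2, FOSL2 and FOS, and FOSL1 and FOSB overlapped, and the other neighbours did not. Groups did not overlap for 7 of the 10 members, 3 higher and 4 lower. Among all listed genes above 0 in some library, 32% were higher without overlap and 11.2% lower without overlap, 43.2% in all. Among the 6 tested members 2 were higher and 3 lower without overlap, where 42.9% of all tested genes were higher, 14.3% lower and 57.3% either. The 3 lower include EGR1, which passed the filter through shCon alone and so had to be lower. With 2 libraries against 2, an exact permutation test of a single value cannot give a p below 0.33.

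The promoters of 4 members are shown because they carry the control elements for which these genes are known. Any link of these elements to the values of the genes here was not tested. Each is the RefSeq window from 250 bases before to 50 after the annotated start, on GRCh38.p14, read on the gene's own strand. Capitals mark the CArG box in EGR1 (chr5:138465229-138465528, plus strand), the element bound by serum response factor. In FOS (chr14:75278578-75278877, plus strand) and FOSB (chr19:45467746-45468045, plus strand) they mark TGACG, the half-site of the cAMP response element. In JUN (chr1:58783998-58784297, minus strand) they mark TGACATCA, the variant AP-1 site through which JUN is known to act on its own gene.
EGR1: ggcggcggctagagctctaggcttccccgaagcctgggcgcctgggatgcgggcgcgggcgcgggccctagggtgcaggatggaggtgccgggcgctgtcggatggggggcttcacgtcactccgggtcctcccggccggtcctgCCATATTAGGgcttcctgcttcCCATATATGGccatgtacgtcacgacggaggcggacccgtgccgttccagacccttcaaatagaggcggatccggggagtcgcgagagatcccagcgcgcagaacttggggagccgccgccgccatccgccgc
FOS: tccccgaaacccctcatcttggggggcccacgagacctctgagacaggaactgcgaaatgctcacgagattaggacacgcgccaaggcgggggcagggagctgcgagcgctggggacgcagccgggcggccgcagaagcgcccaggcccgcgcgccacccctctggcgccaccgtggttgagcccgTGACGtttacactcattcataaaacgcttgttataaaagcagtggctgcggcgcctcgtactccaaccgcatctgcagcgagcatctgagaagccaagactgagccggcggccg
FOSB: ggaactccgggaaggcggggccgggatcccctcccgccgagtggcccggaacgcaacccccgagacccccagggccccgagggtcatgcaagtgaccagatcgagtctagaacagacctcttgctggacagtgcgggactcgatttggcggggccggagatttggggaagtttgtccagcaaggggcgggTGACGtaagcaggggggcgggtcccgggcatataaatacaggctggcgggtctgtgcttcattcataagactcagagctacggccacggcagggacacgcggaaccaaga
JUN: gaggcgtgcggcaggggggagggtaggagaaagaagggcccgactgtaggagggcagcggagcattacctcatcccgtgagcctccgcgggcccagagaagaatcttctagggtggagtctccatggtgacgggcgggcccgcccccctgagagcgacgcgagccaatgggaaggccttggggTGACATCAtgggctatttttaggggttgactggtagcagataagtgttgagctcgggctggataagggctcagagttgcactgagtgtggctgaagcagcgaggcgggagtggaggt

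Both strands were searched in all 35116 RefSeq windows of this length. The CArG box (a pair of C, a run of A and T letters and a pair of G) was in 1.29% of them, and the EGR1 window held 2, at positions -105 to -96 and -83 to -74 from the start. The half-site TGACG was in 24.6% of windows and in 7 of the 9 windows searched. These windows belong to 8 members, ATF3 having 2. FOSL1 and MYC were not searched. TGACATCA was in 2.61% of windows and was found for JUN, at -67 to -60, and for ATF3. The full cAMP response element TGACGTCA, which contains the half-site, was in 1.85% and was found for JUND. The AP-1 consensus TGANTCA was in 7.71% and was found for FOSL2, just after the start. The E-box CACGTG, which MYC-MAX pairs bind, was in 7.26% of windows and in 0 of the 9. These matches describe letters in a window, and elements outside it were not searched. Of the 9 windows, EGR1's alone held a CArG box.

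FOS (ENSG00000170345, GRCh38 chromosome 14, 75278774 to 75282230, plus strand), the founding AP-1 partner, had 0.28 and 0 TPM in shNUP210, against 1.48 and 4.38 TPM in shCon. On its longest listed transcript of 2158 bases this is about 1 and 0 fragments in shNUP210 and about 5.97 and 17.3 in shCon. FOS was thus close to the limit of detection in the knockdown libraries and low in the controls, which also differed from each other. With the filter lowered to 1 TPM in 2 libraries its log2 fold change was -1.69 (limma adjusted p = 0.191). FOS passed that filter through the shCon libraries alone, so the filter itself required a difference. At that filter 0 of the 10 members were called, where 0.391% of 14576 genes were (0.206% higher and 0.185% lower).

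FOSB (ENSG00000125740, chromosome 19, 45467995 to 45475179, plus strand), the family member with a stable splice form, went the other way. It had 2.46 and 1.54 TPM in shNUP210, against 0.57 and 0.30 TPM in shCon. The groups did not overlap, and at the 1 TPM filter the log2 fold change was 1.05 (limma adjusted p = 0.259). FOSB passed that filter through shNUP210 alone, which likewise required a difference. FOSL1 (chromosome 11, 65892049 to 65900573, minus strand), a late-induced FOS protein of growing and invasive cells, was at 4.20 and 0.84 TPM in shNUP210 and 1.3 and 0.5 TPM in shCon. Its higher shNUP210 library lay above both controls and its lower one between them. FOSL2 (chromosome 2, 28392448 to 28417312, plus strand), the most abundant of the FOS family, was at 4.59 and 3.29 TPM in shNUP210 and 2.50 and 7.71 TPM in shCon. Both knockdown values lay between the 2 controls.

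Summed over the 4 FOS genes, the family had 11.5 and 5.67 TPM in shNUP210 and 5.85 and 12.9 TPM in shCon, so the totals interleaved. The shares of FOS and FOSB did not overlap between the groups, while those of FOSL1 and FOSL2 did. FOS gave 2.43 and 0% of the family's TPM in shNUP210, against 25.3 and 34.0% in shCon. FOSB gave 21.3 and 27.2%, against 9.74 and 2.33%. FOSL1 gave 36.4 and 14.8%, against 22.2 and 3.88%, and FOSL2 39.8 and 58.0%, against 42.7 and 59.8%. These shares do not depend on how the libraries are scaled, but they rest on a few fragments and were not tested.

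**Figure D2:**
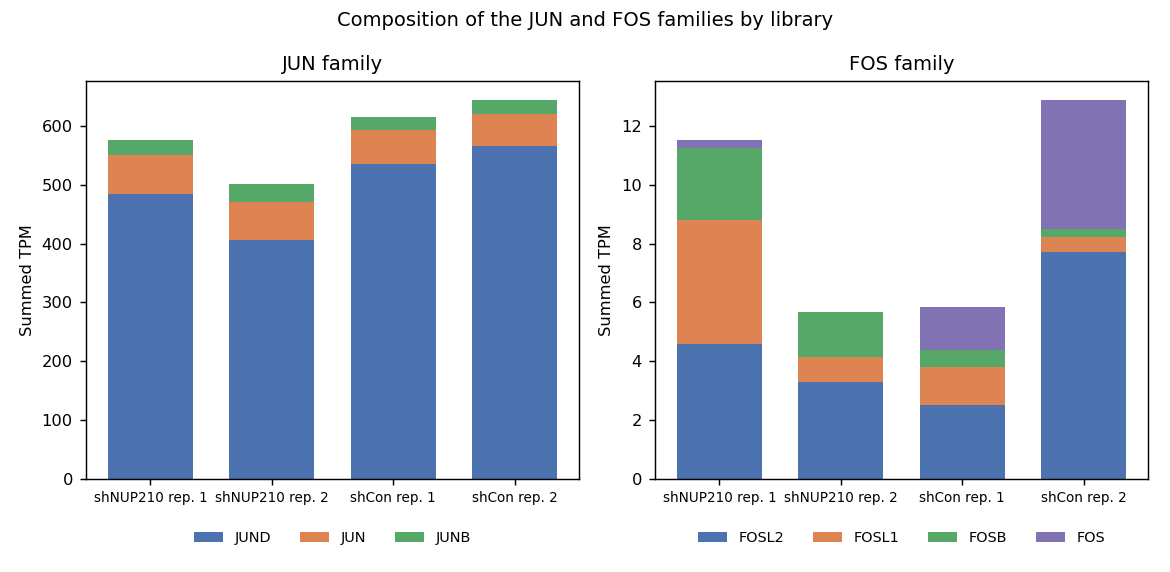
Summed TPM of the JUN family (left panel) and the FOS family (right panel) in each library, shNUP210 first, with each gene as a coloured segment. JUND fills 81.3 to 87.8% of the JUN family in all 4 libraries. The FOS segment is visible in the shCon bars and nearly absent from the shNUP210 bars.

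JUN (ENSG00000177606, chromosome 1, 58780788 to 58784327, minus strand), the partner of FOS that can also pair with itself, had 67.0 and 64.3 TPM in shNUP210, against 58.8 and 54.9 TPM in shCon. The groups did not overlap, but the difference was small: the log2 fold change was 0.21 (SE 0.15, 95% interval -0.16 to 0.57, limma adjusted p = 0.426), next to the median of 0.23 for all tested genes. The sign turned with the scaling, being -0.03 after trimmed-mean or median-ratio scaling. JUNB (chromosome 19, 12791496 to 12793315, plus strand), which restrains JUN in many settings, was at 26.1 and 29.6 TPM in shNUP210 and 21.8 and 23.6 TPM in shCon. Its log2 fold change was 0.28 (SE 0.20, 95% interval -0.22 to 0.79, adjusted p = 0.435), also near the all-gene median, and 0.02 to 0.08 under the other scalings. It is the single member whose exons overlap another listed gene, HOOK2 on the opposite strand (259 bases, 26.4 and 16.7 TPM in shNUP210, 28.1 and 21.3 TPM in shCon), and reads of the pair cannot be told apart if strand was not used.

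JUND (ENSG00000130522, chromosome 19, 18279760 to 18281622, minus strand), the JUN protein known for steady expression in resting cells, was by far the highest of the 10. It had 483.8 and 406.9 TPM in shNUP210, against 534.7 and 566.0 TPM in shCon. Both knockdown libraries lay below both controls, with means of 445.3 ± 54.4 TPM in shNUP210 and 550.4 ± 22.1 TPM in shCon (SD, n = 2 each). JUND had a log2 fold change of -0.31 (SE 0.11, 95% interval -0.59 to -0.03, limma adjusted p = 0.171). After trimmed-mean scaling it was -0.55 (adjusted p = 0.0706). Without shNUP210 replicate 2 it was -0.18, and without shNUP210 replicate 1 -0.43.

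Within the JUN family the shares differed slightly. JUND made up 83.9 and 81.3% of the family's TPM in shNUP210 and 86.9 and 87.8% in shCon. JUN made up 11.6 and 12.8%, against 9.55 and 8.51%, and JUNB 4.52 and 5.90%, against 3.54 and 3.66%. The ratio of JUN to JUND TPM within a library was 0.139 and 0.158 in shNUP210 and 0.110 and 0.0969 in shCon. JUN and JUNB were higher and JUND lower without overlap, which fixed the separation of this ratio and of the JUND share. JUN family TPM exceeded FOS family TPM by 50.0 and 88.3 times in shNUP210 and 105 and 50.0 times in shCon, with overlapping groups.

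ATF3 (ENSG00000162772, chromosome 1, 212565334 to 212620777, plus strand), a stress-induced factor that often acts as a repressor, had 4.27 and 11.4 TPM in shNUP210, against 5.24 and 7.30 TPM in shCon. The knockdown libraries lay on either side of both controls. Their difference of 1.24 on the log2 scale was larger than that of 94.8% of tested genes. The log2 fold change was 0.17 (SE 0.51, 95% interval -1.11 to 1.45, limma adjusted p = 0.870), and leaving out shNUP210 replicate 1 or 2 gave 0.79 and -0.45. No direction can be given for ATF3.

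EGR1 (ENSG00000120738, chromosome 5, 138465490 to 138469315, plus strand), the zinc finger factor induced by ERK through serum response factor, had 4.88 and 3.07 TPM in shNUP210, against 14.0 and 10.2 TPM in shCon. It has a single listed transcript, and these values are about 25.3 and 14.5 fragments in shNUP210 and about 82.1 and 58.5 in shCon. The groups were well apart, at 3.98 ± 1.28 TPM in shNUP210 and 12.1 ± 2.7 TPM in shCon (SD, n = 2 each). The log2 fold change was -1.40 (SE 0.39, 95% interval -2.37 to -0.44, limma adjusted p = 0.112). EGR1 passed the 5 TPM filter through the shCon libraries alone, and a gene that passes in this way has to differ between the groups. With the filter at 1 TPM in all 4 libraries, which it passed in both groups, the adjusted p was 0.101, where 2.72% of genes were called (1.72% higher and 1.00% lower) and 0 members. The log2 fold change was -0.93 with a pseudocount of 5 TPM. It ranged from -1.67 to -1.14 when 1 library was left out and from -1.76 to -1.58 under the other scalings, with no call in any of them.

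MYC (ENSG00000136997, chromosome 8, 127735434 to 127741434, plus strand), which drives growth and ribosome production, had 51.3 and 50.4 TPM in shNUP210, against 81.7 and 72.7 TPM in shCon. The 2 knockdown libraries were nearly equal, differing by 0.03 on the log2 scale, and lay below both controls. The means were 50.9 ± 0.693 TPM in shNUP210 and 77.2 ± 6.31 TPM in shCon (SD, n = 2 each). The log2 fold change was -0.59 (SE 0.15, 95% interval -0.96 to -0.22), with a limma adjusted p of 0.0963. Scaling decided the call: after trimmed-mean scaling the fold was -0.83 (adjusted p = 0.0467) and after median-ratio scaling -0.83 (0.0477), where MYC was the 1 member called. After trimmed-mean scaling 3.23% of tested genes were called (0.769% higher and 2.47% lower), and after median-ratio scaling 3.24% (0.799% higher and 2.45% lower). The fold was -0.79 after upper-quartile scaling (0.0544) and -0.77 after quantile normalization (0.0682). Leaving out any library gave folds of -0.67 to -0.51 in TPM as deposited.

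Ratios between members within a library do not depend on scaling, and the following were chosen after the values had been seen. The ratio of MYC to JUN TPM was 0.766 and 0.783 in the shNUP210 libraries, against 1.39 and 1.33 in the shCon libraries, so the 2 genes changed places in the order. EGR1 to JUN was 0.0728 and 0.0477 in shNUP210, against 0.238 and 0.185 in shCon. EGR1 to ATF3 was 1.14 and 0.268, against 2.67 and 1.39. No pair of groups overlapped in these 3 ratios. For MYC to JUN and EGR1 to JUN this was fixed by the values above. MYC and EGR1 were lower, and JUN higher, in both shNUP210 libraries than in either shCon library.

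**Figure D3:**
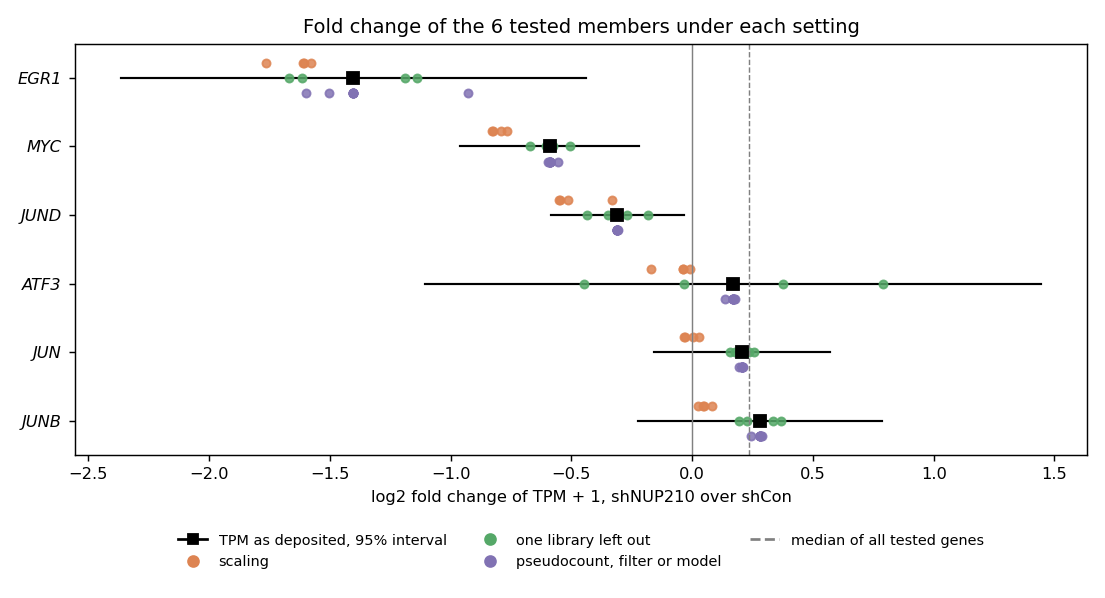
Log2 fold change of TPM + 1, shNUP210 over shCon, for the 6 tested members. Black squares and lines are the value in TPM as deposited with its 95% interval, orange points other scalings, green points fits without 1 library, purple points other pseudocounts, filters or models; the dashed line is the median of all tested genes (0.23). EGR1, MYC and JUND stay below 0 in all settings drawn, JUN and JUNB lie by the dashed line in TPM as deposited, and ATF3 spans 0.

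The tested genes with the closest profiles over the 4 libraries (smallest Euclidean distance of log2 values, each gene minus its own mean) were ERCC1, FAM234A and YJU2 for JUN, at distances of 0.0217 to 0.0240. For EGR1 they were BICDL1, MAPK13 and WNK4, at 0.121 to 0.168, and for MYC ZBTB22, NT5DC2 and APOC1, at 0.0311 to 0.0510. APOC1, an apolipoprotein gene of liver, was at 539 and 555 TPM in shNUP210 and 879 and 786 TPM in shCon, and was called (limma adjusted p = 0.0389). With 4 libraries such likeness is mostly the difference between the groups.

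The surrounding pathway was read from 8 gene lists. Of their 123 distinct tested genes, 5 were called higher (CCN1, CCN2, GADD45B, DUSP1 and CCND1) and 1 lower (CEBPB), against 1.79 and 1.07% of all tested genes. Each of these 6 calls was lost when any 1 library was left out, and with the filter at 1 TPM in 2 libraries. After trimmed-mean scaling the split was 3 higher and 4 lower.

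Among 19 tested immediate early genes outside the group (of 27 in the list, 23 of them listed), 3 were called higher and 0 lower. Of all tested genes 1.79% were called higher and 1.07% lower. The median log2 fold change was 0.30, against 0.23 over all genes. CCN1, a secreted matrix-associated protein, was at 66.0 and 62.1 TPM in shNUP210, against 9.25 and 15.8 TPM in shCon (limma adjusted p = 0.0269, 0.0803 to 0.15 without 1 library). CCN2, a related matricellular protein, was at 102.2 and 98.3 TPM, against 43.6 and 38.9 TPM (adjusted p = 0.0247, 0.12 to 0.15 without 1 library), and its exons overlap another listed gene. GADD45B, a stress sensor that binds kinases of the p38 and JNK pathways, was at 22.9 and 24.7 TPM, against 7.41 and 4.74 TPM (adjusted p = 0.0488, 0.127 to 0.205 without 1 library). It was called in TPM as deposited but under none of the 4 other scalings (0.0573 to 0.0679). Without overlap of the groups, 8 of the 19 were higher and 3 lower, where 42.9% of all tested genes were higher and 14.3% lower.

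Kinases and serum response regulators had 0 called of 17 tested and a median of 0.15. At an unadjusted p under 0.05, 3 were higher and 0 lower, where 18.4% of all tested genes were higher and 5.95% lower. Wide differences were in MRTFA, an actin-sensing coactivator of serum response factor (14.4 and 20.3 TPM in shNUP210, 8.27 and 5.16 in shCon, adjusted p = 0.114) and the ERK-activated kinase RPS6KA3 (78.2 and 67.0 TPM, against 43.7 and 40.7, adjusted p = 0.0725). MRTFA exons overlap SGSM3 over 9 bases. SRF, given here because it binds CArG boxes, was at 23.3 and 26.9 TPM in shNUP210 and 24.0 and 18.4 TPM in shCon, with overlapping groups.

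Feedback inhibitors had 1 of 15 tested called higher and 0 lower, where 1.79% of all tested genes were called higher and 1.07% lower. Their median log2 fold change was 0.03, against 0.23 over all tested genes. DUSP1, an immediate early phosphatase that switches off p38, JNK and ERK, rose to 40.9 and 37.5 TPM in shNUP210, against 17.5 and 16.1 TPM in shCon (log2 fold change 1.18, SE 0.20, limma adjusted p = 0.0488). Its call was lost under every other scaling (0.064 to 0.0811) and without any 1 library (0.15 to 0.189). ZFP36, which destabilises AU-rich messages, was at 9.91 and 23.4 TPM, against 5.09 and 9.72 TPM, and DUSP4, a nuclear phosphatase, at 10.4 and 11.6 TPM, against 5.72 and 5.80 TPM (adjusted p = 0.274 and 0.188). DUSP5, an ERK-specific nuclear phosphatase named after its values were seen, was on the other side, at 79.8 and 72.6 TPM in shNUP210 and 144 and 123 TPM in shCon (adjusted p = 0.0532).

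AP-1 target genes had 1 of 9 tested called higher and 0 lower, where 1.79% of all tested genes were called higher and 1.07% lower. Their median log2 fold change was 0.32, against 0.23 over all tested genes. CCND1, encoding the G1 cyclin D1, rose to 493.5 and 390.6 TPM in shNUP210, against 213.1 and 200.3 TPM in shCon (log2 fold change 1.08, SE 0.14, limma adjusted p = 0.0295). It was called under all 4 other scalings and lost without any 1 library (0.0607 to 0.151), and its exons overlap ORAOV1 over 497 bases. The cytokine gene CXCL8 was at 12.4 and 10.8 TPM, against 3.90 and 3.23 TPM (adjusted p = 0.0874), and passed the filter through shNUP210 alone. PLAU, encoding urokinase, was at 9.70 and 8.72 TPM, against 3.71 and 5.01 TPM (adjusted p = 0.194), and overlaps C10orf55 over 916 bases.

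**Figure D4:**
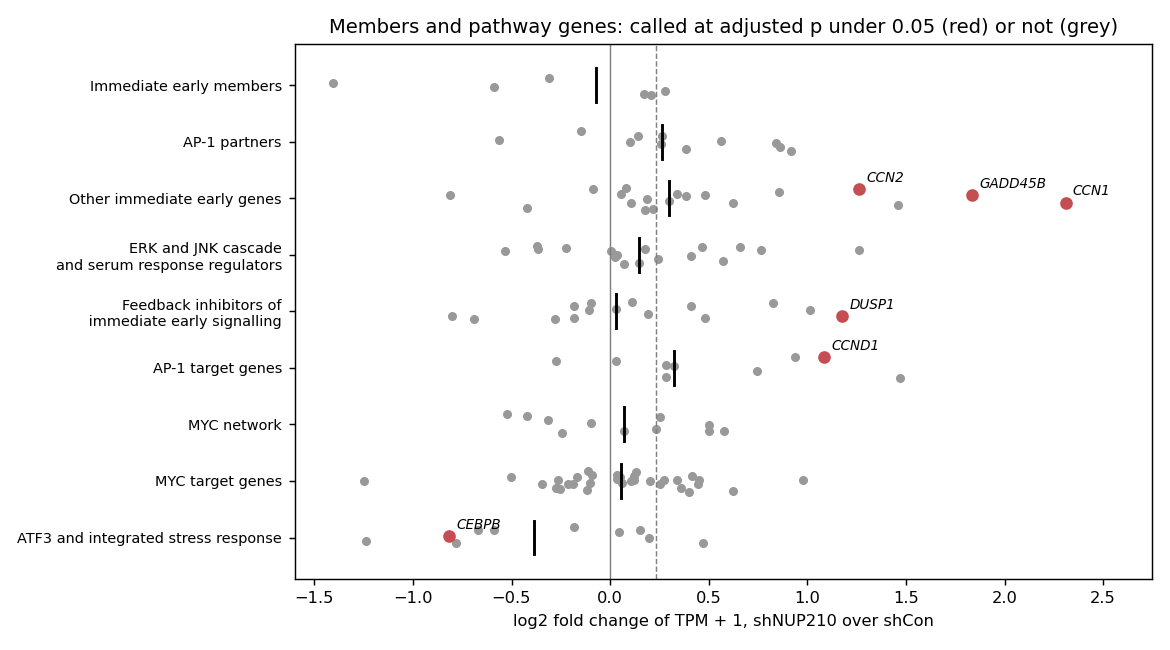
Log2 fold change of TPM + 1, shNUP210 over shCon, of each tested member (top row) and of each tested gene in 8 pathway lists. Red points with names passed an adjusted p of 0.05, grey points did not; black ticks are list medians and the dashed line is the median of all tested genes (0.23). The 5 red points on the right are CCN1, CCN2, GADD45B, DUSP1 and CCND1, and CEBPB is the red point on the left.

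The MYC network had 0 called of 11 tested, with a median of 0.07. MAX, the obligate partner of MYC, was at 24.5 and 33.8 TPM in shNUP210 and 15.7 and 22.8 TPM in shCon (limma adjusted p = 0.270). MLX, the partner of the related MondoA and ChREBP factors, was at 47.7 and 51.4 TPM, against 35.3 and 34.0 TPM (adjusted p = 0.152), and overlaps PSMC3IP. MYCN, the MYC relative of neural and fetal tissue, was at 19.8 and 20.4 TPM in shNUP210 and 30.9 and 27.9 TPM in shCon (log2 fold change -0.53, adjusted p = 0.190). Like MYC it was lower in both knockdown libraries, at 0.684 of the control mean against 0.659 for MYC, but MYCN overlaps its antisense gene MYCNOS.

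Of 32 MYC target genes, all tested, 0 were called and the median was 0.05, against 0.23 for all genes. At an unadjusted p under 0.05, 4 were higher and 4 lower, where 18.4% of all tested genes were higher and 5.95% lower. TERT, the telomerase reverse transcriptase, was at 8.32 and 5.65 TPM in shNUP210 and 15.9 and 19.6 TPM in shCon (adjusted p = 0.0969). NCL, the nucleolar protein nucleolin, was at 768.3 and 802.8 TPM, against 573.5 and 452.0 TPM (adjusted p = 0.0688), and the RNA polymerase I subunit POLR1B at 57.1 and 43.4 TPM, against 28.7 and 21.5 TPM (adjusted p = 0.0907). The targets thus lay on both sides of 0, and their median minus that of all tested genes was -0.18. Whether they followed MYC was not tested.

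The list around ATF3 and the integrated stress response had 1 of 10 tested called lower and 0 higher. Of all tested genes 1.07% were called lower and 1.79% higher. The list had a median log2 fold change of -0.39, against 0.23 over all tested genes. CEBPB, a basic leucine zipper factor of the acute phase response, fell to 96.1 and 100.1 TPM in shNUP210, against 184.5 and 162.7 TPM in shCon (log2 fold change -0.81, SE 0.13, limma adjusted p = 0.0421, 0.152 to 0.162 without 1 library). DDIT4, an inhibitor of mTORC1, was at 14.6 and 10.7 TPM, against 33.7 and 28.1 TPM (adjusted p = 0.0706), and ASNS, asparagine synthetase, at 20.8 and 17.1 TPM, against 30.1 and 36.5 TPM (adjusted p = 0.120). DDIT4 was called after trimmed-mean (0.0458), median-ratio (0.0462) and upper-quartile scaling (0.0490), and its exons overlap RP11-442H21.2 over 847 bases. ATF3 itself overlapped between the groups.

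Of the 11 tested other basic leucine zipper genes that can pair with JUN or FOS proteins or share their sites, 0 were called and the median was 0.26. NFE2L2, the antioxidant response factor NRF2, was at 79.6 and 65.4 TPM in shNUP210, against 36.3 and 42.5 TPM in shCon (limma adjusted p = 0.0721), and overlaps another listed gene. ATF1 was at 12.7 and 25.3 TPM, against 12.8 and 6.32 TPM, with overlapping groups, and MAF at 18.6 and 25.1 TPM, against 17.2 and 7.74 TPM (adjusted p = 0.280 and 0.267).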

How the data were processed

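RNA of 4 Huh7 libraries was measured by RNA sequencing. The authors deposited 1 table per library with TPM values, which sum to 999993 to 999998 per library. The submitters' processing notes name hg38, DESeq, RSEM, STAR and Trimmomatic. Roles, versions and annotation are not given in the sources used here. Positions and exon overlaps came from GENCODE release 29 (GRCh38), promoters from RefSeq (GRCh38.p14). Current symbols were found for 19363 gene identifiers, and 172 of 191 list entries matched.

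Unscaled log2(TPM + 1) values of genes with at least 5 TPM in 2 libraries were fitted with limma 3.58.1 (R 4.3.3, mean-variance trend, two-sided), adjusted by Benjamini-Hochberg over all 10140 genes. This scale understates folds of low genes. The fit was tested on simulated data with known changes. The spread of each simulated gene followed a smooth curve on its mean level, as the fit assumes. The simulation therefore cannot show how the fit treats genes off that curve. Members, lists, filter and scaling were chosen with earlier results of these data known. Named genes were the members, called list genes, else the largest folds up to 3 per list; 1 such gene is not reported here. Alternatives changed the pseudocount, filter, scaling, variance model, replicate block and libraries.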

Additional observations from a re-analysis of the deposited data

How the results depend on the processing

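In TPM as deposited 290 genes were called, 181 higher and 109 lower. The count was 57 (30 higher, 27 lower) with a filter of 1 TPM in 2 libraries, 15 (10 and 5) with no filter, and 0 without the mean-variance trend, where 2290 genes had an unadjusted p under 0.05. It was 4 to 27 without 1 library (3 to 14 higher, 1 to 13 lower). The split by direction turned with scaling: 78 higher and 250 lower after trimmed-mean scaling, 81 and 248 after median-ratio scaling, 92 and 230 after upper-quartile scaling, and 87 higher after quantile normalization, since the all-gene median of 0.23 becomes 0.01 or 0.04. Of the members, MYC was the 1 call gained, after trimmed-mean (-0.83) and median-ratio scaling (-0.826). JUN changed sign after trimmed-mean (-0.0339) and median-ratio scaling (-0.0294). ATF3 changed sign after trimmed-mean (-0.0402), median-ratio (-0.0363) and upper-quartile scaling (-0.00755) and quantile normalization (-0.171), and its fold without 1 library ran from -0.45 to 0.79. The 6 calls in the pathway lists became 0 with a filter of 1 TPM in 2 libraries, with no filter, without the trend, and without any 1 library. The marker PDGFRB changed sign after quantile normalization (-0.0367) and without shNUP210 replicate 1, its range without 1 library being -0.0861 to 0.606. The cause was not tested, except that fewer libraries and more low genes enter the respective fits by construction.

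Whether same-numbered libraries shared a preparation is not stated in the sources used here. The correlation of their deviations from the group means was 0.0231 over the tested genes. With 2 libraries per group this value cannot settle whether they were paired. With the replicate block, 63 genes were called (31 higher, 32 lower), 1 list gene (CCND1) and 0 members. Low depth limits FOS, FOSB and FOSL1 most.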

Other observations

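Further immediate early and AP-1 target genes lay below the 5 TPM filter and were not tested; the following were chosen after their values were seen. NR4A2, an orphan nuclear receptor induced by cAMP and growth factors, had 4.95 and 4.11 TPM in shNUP210, against 1.15 and 0.59 TPM in shCon, whereas its relative NR4A1, which was tested, was at 12.5 and 9.35 TPM, against 27.6 and 14.1 TPM (limma adjusted p = 0.255) and overlaps another listed gene. EREG, an EGF-family ligand, was at 2.06 and 2.29 TPM, against 0.88 and 0.91 TPM, and SPP1, encoding osteopontin, at 4.46 and 5.24 TPM, against 2.46 and 2.68 TPM. ELK3, a ternary complex factor that acts with SRF, was at 3.64 and 6.25 TPM, against 3.12 and 2.64 TPM, and overlaps another listed gene. Each of NR4A2, EREG, SPP1 and ELK3 was higher in both shNUP210 libraries than in either shCon library, as were 32% of all listed genes above 0 in some library.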
